A study of Mus musculus with 2 samples.

Results

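The 47 genes described here were listed for the adrenal response to corticotropin (ACTH), from the receptor to its effectors. They are the ACTH receptor and its accessory proteins, the stimulatory G protein, adenylyl cyclases, protein kinase A (PKA) subunits, CREB factors with their coactivators, phosphodiesterases, A-kinase anchoring proteins and EPAC exchange factors. They were taken from a list of symbols with no rule on measured levels, though earlier results of these data were known. All 47 matched 1 gene each among the 55536 annotated genes of the tables (GENCODE M21, mouse assembly mm10). Total RNA of the adrenal gland was sequenced from 2 adult male B6CASTF1/J mice aged 8 to 10 months. Such animals carry 1 genome copy of the C57BL/6J strain and 1 of CAST/EiJ. Replicate 2 is animal 4 and replicate 1 is animal 2 of the submitters' numbering. The labels name 1 group and no treatment, so the data give levels, the order of genes within families, and the spread between 2 animals. Adrenal tissue holds cortex and medulla, so a level or a leading gene cannot be assigned to the cells that respond to ACTH.

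ACTH from the pituitary binds the melanocortin receptor MC2R on cortical cells, which needs the accessory protein MRAP to reach the cell surface. The receptor acts through the alpha subunit of Gs to switch on adenylyl cyclase. The cAMP that follows frees the catalytic subunits of PKA from the regulatory ones, PKA phosphorylates CREB and other targets, and steroid hormone output rises. Phosphodiesterases end the signal by cleaving cAMP, and EPAC proteins are a second set of cAMP sensors.

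The library of replicate 2 held 33987434 expected counts (estimated read counts) over annotated genes, and that of replicate 1 held 29994901. Of the 47 genes, 42 reached 1 TPM (a read level divided by transcript length and scaled to a common library sum) in both glands. Among all nuclear protein-coding genes the same level was reached by 56.3%. At 10 TPM or more in both glands there were 28 of the 47, and their median rank by mean TPM was 5737 of 22015 nuclear protein-coding genes. Their median level was 15.0 TPM in replicate 2 and 14.9 TPM in replicate 1, and none was listed at 0 in both glands. Markers of the labelled tissue were present: all 8 of the steroidogenic cortex list, among them Star and Cyp11a1, and all 10 of the chromaffin (medulla) list reached 1 TPM in both glands.

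**Figure D1:**
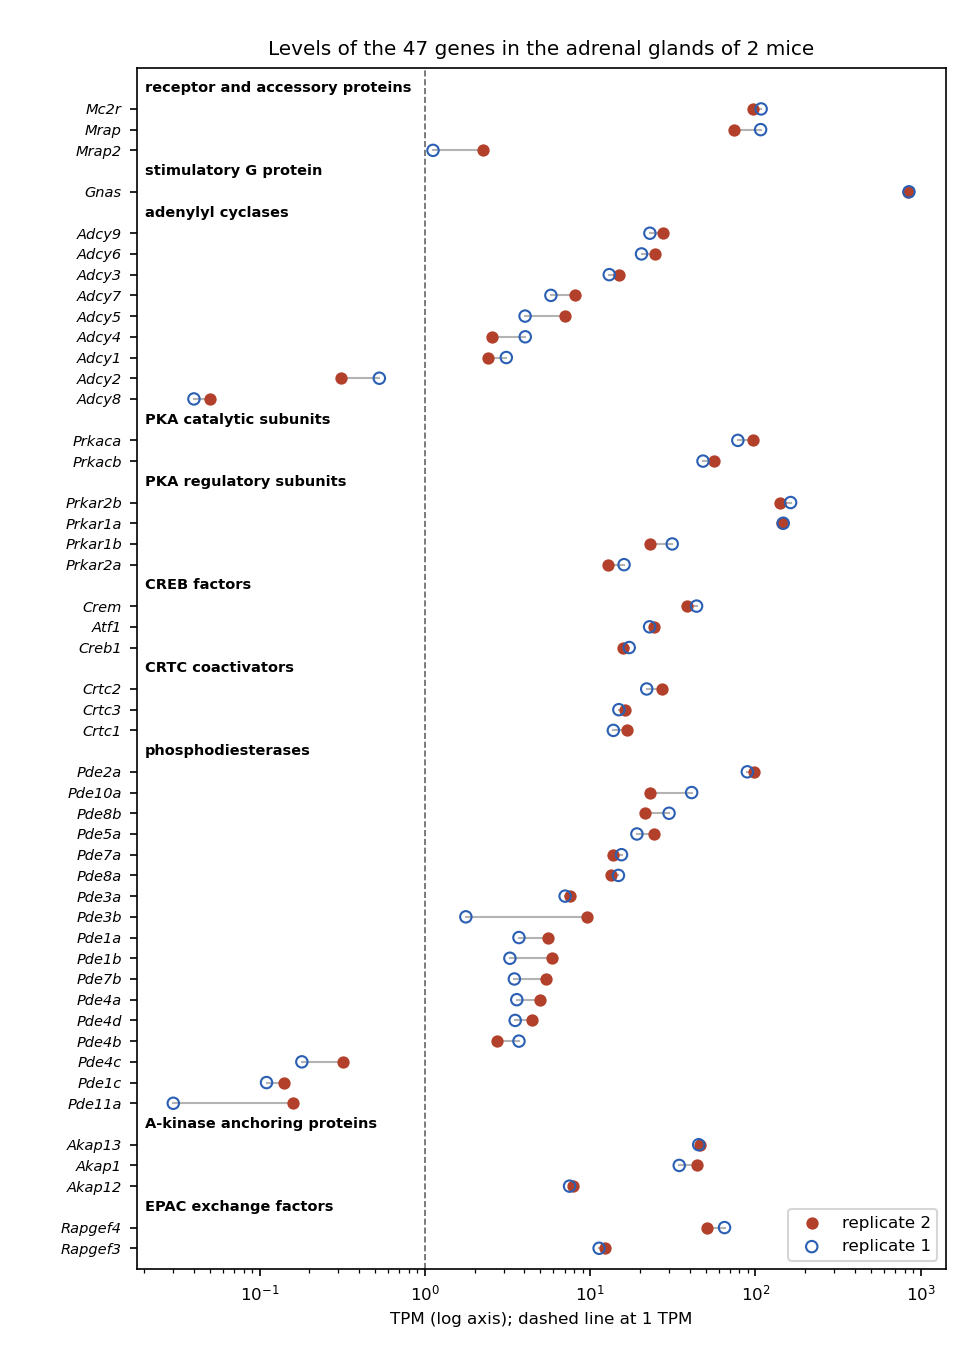
Each row is 1 of the 47 genes, grouped by family and ordered by mean level, with its TPM on a log axis in replicate 2 (filled) and replicate 1 (open). Gnas stands highest at 842 and 851 TPM, Pde3b has the widest gap among the genes above the dashed line at 1 TPM, and 5 genes lie below that line in both glands.

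The receptor gene Mc2r (chr18:68406907-68429320, minus strand) was among the more abundant coding genes of both glands. It stood at 96.9 TPM in replicate 2 and 108 TPM in replicate 1 (103 ± 8.14, mean ± SD, n = 2), and its mean placed it at rank 507 of those 22015 genes. The accessory gene Mrap had 74.2 TPM in replicate 2 and 108 TPM in replicate 1. The receptor and its accessory protein were thus close to each other in replicate 1, and Mrap was lower than Mc2r in replicate 2. The ratio of Mrap to Mc2r was 0.765 in replicate 2 and 0.993 in replicate 1. Under the second quantification of the same reads, in kallisto's format, that ratio was 0.961 and 1.26, so the order of the pair was not settled in replicate 1. Mrap2, an accessory protein of melanocortin receptors best known from the brain, was near the detection level. It had 2.25 TPM in replicate 2 and 1.12 TPM in replicate 1, which made it the detected gene nearest to the 1 TPM limit. None of the other 4 melanocortin receptor genes was detected, and Mc3r was listed at 0 in both glands. The highest of those 4, Mc5r, had 0.10 TPM in replicate 2 and 0.02 TPM in replicate 1.

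Gnas (chr2:174284320-174346744, plus strand), which encodes the Gs alpha subunit, had the highest level of the 47 genes. It had 842 TPM in replicate 2 and 851 TPM in replicate 1 (847 ± 6.56, n = 2), rank 18 among nuclear protein-coding genes. The deposited table gives credibility bounds for TPM around a posterior mean, and for Gnas in replicate 2 these ran from 814 to 834 TPM, below the TPM value itself. Its level was 8.68 times that of Mc2r in replicate 2 and 7.85 times in replicate 1. Against all 9 adenylyl cyclases summed, it was 9.57 times as high in replicate 2 and 11.5 times in replicate 1. The Gnas locus also makes the proteins NESP55 and XLalphas from upstream first exons. Transcripts from those upstream starts took 5.94% of the gene's TPM in replicate 2 and 7.24% in replicate 1, while transcripts from the first exon of Gs alpha took 87.9% in replicate 2 and 86.3% in replicate 1. The share from the Gs alpha exon was lower under the kallisto-format quantification, at 72.4% in replicate 2 and 70.6% in replicate 1, where more was placed on other starts.

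Gs alpha is made in a long and a short form that differ by a 45-base exon (chr2:174336747-174336791), a multiple of 3. These sequences are shown because the form that leads is what the data measure. They come from the GENCODE M21 transcripts, with 24 bases on either side of the junction, and the capitals mark the bases that differ between the forms (the exon in Gnas-208, and 3 further bases at the same junction in Gnas-207).
Gnas-208: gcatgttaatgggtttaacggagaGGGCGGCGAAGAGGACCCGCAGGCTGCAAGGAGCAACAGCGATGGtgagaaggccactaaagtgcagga
Gnas-206: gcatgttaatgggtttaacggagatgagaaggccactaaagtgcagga
Gnas-207: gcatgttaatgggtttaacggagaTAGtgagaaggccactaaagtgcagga
Both forms were abundant, and transcripts with the exon, from all starts of the gene, were ahead in both glands. Transcripts with the exon took 52.3% of the Gnas TPM in replicate 2 and 58.7% in replicate 1, and those that skip it took 44.9% in replicate 2 and 37.4% in replicate 1. The single transcript Gnas-208 led the gene with 43.0% in replicate 2 and 48.8% in replicate 1, followed by the short Gnas-206 with 33.8% in replicate 2 and 25.6% in replicate 1. Gnas-207 took 11.1% in replicate 2 and 11.9% in replicate 1. The group with the exon also held transcripts from starts other than the first exon of Gs alpha. Gnas-208, which starts there, had 362 TPM in replicate 2, below 378 TPM for all transcripts that skip the exon. In replicate 1 it had 416 TPM, above 319 TPM for those that skip it. The kallisto-format tables put the share with the exon at 64.3% in replicate 2 and 71.1% in replicate 1. Both quantifications placed transcripts with the exon first in both glands, and their values differed by more than the 2 animals did. The order of Gnas-208 against the transcripts that skip the exon differed between the quantifications in replicate 2. There the kallisto-format values were 294 TPM for Gnas-208 and 285 TPM for those that skip it.

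Adenylyl cyclases, the membrane enzymes that make cAMP, were each far below Gnas, and no single one dominated. Adcy9, the form least sensitive to forskolin, had 27.5 TPM in replicate 2 and 23.0 TPM in replicate 1. Adcy6, a form inhibited by calcium, had 24.9 TPM in replicate 2 and 20.5 TPM in replicate 1. Adcy9 was first in both glands by a ratio of 1.11 in replicate 2 and 1.12 in replicate 1, and the deposited bounds of the pair overlapped in each gland. Adcy3, stimulated by calcium and calmodulin, followed with 15.0 TPM in replicate 2 and 13.1 TPM in replicate 1. Adcy7 had 8.08 TPM in replicate 2 and 5.79 TPM in replicate 1, and Adcy5, the other calcium-inhibited form, had 7.09 TPM in replicate 2 and 4.04 TPM in replicate 1. Adcy4 and Adcy1 lay between 2.42 and 4.05 TPM. Adcy2, with 0.31 TPM in replicate 2 and 0.53 TPM in replicate 1, and Adcy8, with 0.05 TPM in replicate 2 and 0.04 TPM in replicate 1, were not detected, and of the 5 undetected genes Adcy2 lay nearest to the limit. By type, the calcium-inhibited pair made up 36.3% of the summed cyclase TPM in replicate 2 and 33.1% in replicate 1. Adcy9 alone made up 31.3% in replicate 2 and 31.1% in replicate 1. The calcium-stimulated forms made up 19.9% in replicate 2 and 21.9% in replicate 1, and the forms stimulated by G protein beta-gamma subunits 12.4% in replicate 2 and 14.0% in replicate 1. The order of these 4 types was the same in both glands with the deposited TPM. In the kallisto-format tables Adcy9 had 22.4 TPM in replicate 2 and 18.7 TPM in replicate 1. Adcy6 had 15.5 TPM and 13.0 TPM there, and Adcy5 5.96 TPM and 4.32 TPM, so Adcy9 exceeded the calcium-inhibited pair in both glands. It also did so on protein-coding transcripts, where Adcy6 had 15.65 TPM in replicate 2 and 15.28 TPM in replicate 1.

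PKA is a tetramer of catalytic and regulatory subunits. Of the catalytic genes, Prkaca (C alpha) had 97.4 TPM in replicate 2 and 78.4 TPM in replicate 1. Prkacb (C beta) had 56.0 TPM in replicate 2 and 48.2 TPM in replicate 1. Prkaca led in both glands by 1.74 times in replicate 2 and 1.62 times in replicate 1, with bounds that did not overlap. Regulatory subunits summed to more than catalytic ones, by 2.09 times in replicate 2 and 2.83 times in replicate 1.

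Among the regulatory subunits the lead was shared by a type I and a type II gene. Prkar1a, which encodes RI alpha and is the gene mutated in human Carney complex, had 144 TPM in replicate 2 and 148 TPM in replicate 1. Prkar2b, which encodes RII beta, had 141 TPM in replicate 2 and 164 TPM in replicate 1. Prkar1a was thus first in replicate 2, with overlapping bounds, and Prkar2b was first in replicate 1, with separate bounds. Prkar1b had 23.2 TPM in replicate 2 and 31.4 TPM in replicate 1, and Prkar2a had 12.9 TPM in replicate 2 and 16.1 TPM in replicate 1. Type I subunits made up 52.1% of the regulatory TPM in replicate 2 and 49.9% in replicate 1, so the types were near parity in each gland.

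Prkar1a was the only one of the genes with a matched promoter to hold a full cAMP response element in the window searched. RefSeq promoters (GRCm38.p6, from 250 bases before to 50 bases after an annotated start) were matched for 37 of the 47 genes, 79 promoters in all. The 10 genes without a match were Adcy6, Adcy8, Akap12, Crem, Crtc2, Mc2r, Mrap, Pde3a, Pde3b and Pde7a. The element TGACGTCA, the binding sequence of CREB, was present on either strand in 2 of the 79 promoters, both of Prkar1a and sharing 1 site, against 1.79% of 32851 promoters in all. In the sequence of chr11:109650699-109650998 (plus strand) the capitals mark that element, which begins 49 bases before the RefSeq start site at position 109650949.
Prkar1a promoter: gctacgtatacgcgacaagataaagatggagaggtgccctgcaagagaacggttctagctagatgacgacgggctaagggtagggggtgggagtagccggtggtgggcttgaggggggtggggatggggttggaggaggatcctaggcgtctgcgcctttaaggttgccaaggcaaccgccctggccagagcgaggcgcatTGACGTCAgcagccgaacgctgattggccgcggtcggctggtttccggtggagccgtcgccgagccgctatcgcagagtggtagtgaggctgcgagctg
The transcript Prkar1a-201, which starts at position 109650921, took 79.3% of the gene's TPM in replicate 2 and 83.0% in replicate 1. The shorter motif TGACG, which lies within the full element, was present in 20 of the 79 promoters (25.3%), from 16 genes, against 20.8% of all promoters. The motif CAAGGTCA, bound by the adrenal factor SF-1, was present in 1 promoter, that of Adcy1, against 1.56% of all. A match is a description of letters in these windows and does not show that a factor binds there.

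CREB family genes were led by Crem, whose many transcripts encode activators as well as the inducible repressor ICER. Crem (chr18:3266048-3337748) had 38.8 TPM in replicate 2 and 44.1 TPM in replicate 1. Atf1, a close relative of CREB, had 24.2 TPM in replicate 2 and 22.9 TPM in replicate 1. Creb1 itself had 15.9 TPM in replicate 2 and 17.2 TPM in replicate 1. The order was the same in both glands, with Crem above Creb1 by 2.44 times in replicate 2 and 2.56 times in replicate 1. The order depends on the division by transcript length: by expected counts Creb1 was first in both glands.

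The CRTC genes encode coactivators that enter the nucleus and bind CREB when dephosphorylated. Crtc2 had 27.2 TPM in replicate 2 and 22.0 TPM in replicate 1. Crtc3 had 16.2 TPM in replicate 2 and 14.9 TPM in replicate 1, and Crtc1 had 16.6 TPM in replicate 2 and 13.8 TPM in replicate 1. Crtc2 led in both glands, and the second place differed between them. In the RSEM-format tables that lead rests on transcripts not annotated as protein coding: the leading transcript Crtc2-202 is a retained-intron form with 28.0% of the gene's TPM in replicate 2 and 28.6% in replicate 1. Counting protein-coding transcripts only, in the same tables, Crtc2 had 3.60 TPM in replicate 2 and 4.41 TPM in replicate 1. The kallisto-format tables instead put the protein-coding transcript of Crtc2 first, with 42.6% in replicate 2 and 35.6% in replicate 1, so its leader depended on the quantifier. On protein-coding transcripts of the RSEM-format tables Crtc3 was first, with 13.4 TPM in replicate 2 and 10.7 TPM in replicate 1.

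Phosphodiesterases were led by Pde2a in both glands. Pde2a (chr7:101421691-101512827, plus strand) encodes an enzyme that cleaves both cAMP and cGMP and is stimulated by cGMP. It had 98.2 TPM in replicate 2 and 89.5 TPM in replicate 1 (93.8 ± 6.18, n = 2), which was 40.7% of the TPM of all 17 phosphodiesterases in replicate 2 and 37.2% in replicate 1. Over all transcripts its level was near that of Mc2r. On protein-coding transcripts it had 39.6 TPM in replicate 2 and 29.2 TPM in replicate 1, below Mc2r with 96.9 TPM and 108 TPM. The second gene by mean level was Pde10a, a dual-specificity enzyme best known from the striatum, with 23.2 TPM in replicate 2 and 41.2 TPM in replicate 1. Pde2a exceeded it 4.24 times in replicate 2 and 2.17 times in replicate 1. The lead was smaller on protein-coding transcripts, where Pde10a had 12.9 TPM in replicate 2 and 23.0 TPM in replicate 1.

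The next genes were of differing substrate specificity. Pde8b, a cAMP-specific enzyme of high affinity whose loss in mice raises corticosterone output, had 21.5 TPM in replicate 2 and 30.1 TPM in replicate 1. Its relative Pde8a had 13.4 TPM in replicate 2 and 14.8 TPM in replicate 1, so Pde8b was 1.60 times as high in replicate 2 and 2.03 times in replicate 1. Pde5a, the cGMP-specific enzyme that sildenafil inhibits, had 24.2 TPM in replicate 2 and 19.2 TPM in replicate 1. In replicate 2 Pde5a stood second, ahead of Pde10a and Pde8b, while in replicate 1 it stood behind both. The cAMP-specific Pde7a had 13.9 TPM in replicate 2 and 15.5 TPM in replicate 1.

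The remaining phosphodiesterases were low. Pde3a, Pde3b, Pde1a, Pde1b, Pde7b, Pde4a, Pde4b and Pde4d lay between 1.77 and 9.53 TPM in both glands. The Pde4 genes, which encode the cAMP-specific enzymes inhibited by rolipram, held at most 4.99 TPM each, the value of Pde4a in replicate 2. Pde1c, Pde4c and Pde11a were not detected. Pde11a, mutated in some human adrenocortical hyperplasias, had 0.16 TPM in replicate 2 and 0.03 TPM in replicate 1, from 8 and 2 expected counts. Enzymes that cleave both nucleotides made up 62.3% of the family's TPM in replicate 2 and 60.9% in replicate 1. The cAMP-specific enzymes made up 27.6% in replicate 2 and 31.1% in replicate 1, and Pde5a 10.0% in replicate 2 and 7.98% in replicate 1. These shares count all transcripts and were not computed on protein-coding ones alone. On those, the dual enzyme Pde2a had 39.6 of its 98.2 TPM in replicate 2 and 29.2 of its 89.5 TPM in replicate 1. A majority for the dual enzymes is therefore given for all transcripts only. The summed level of the family was 241 TPM in each gland.

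Much of the Pde2a signal fell on a transcript annotated for nonsense-mediated decay. Pde2a-209 took 45.5% of the gene's TPM in replicate 2 and 53.2% in replicate 1, ahead of the protein-coding Pde2a-204 with 30.6% in replicate 2 and 26.8% in replicate 1. The transcripts differ in their first exon and in a 62-base exon (chr7:101461480-101461541) that is not a multiple of 3. The exon is shown in capitals within GENCODE M21 sequence, beside the transcript that skips it.
Pde2a-209: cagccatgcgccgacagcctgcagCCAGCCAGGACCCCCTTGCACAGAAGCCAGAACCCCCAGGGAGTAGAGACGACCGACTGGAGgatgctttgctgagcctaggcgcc
Pde2a-204: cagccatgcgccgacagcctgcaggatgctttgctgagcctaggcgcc
Transcripts with this exon took 50.4% of the Pde2a TPM in replicate 2 and 60.0% in replicate 1. Those without it took 44.5% in replicate 2 and 36.0% in replicate 1. The kallisto-format tables gave a share with the exon of 52.4% in replicate 2 and 60.0% in replicate 1, close to the first quantification. Counting protein-coding transcripts only, Pde2a had 39.6 TPM in replicate 2 and 29.2 TPM in replicate 1 and was still first of the family in both glands. A same-strand gene that overlaps Pde2a, Gm45837, was listed at 0 expected counts in replicate 2 and 127 in replicate 1. These are estimates after shared reads were divided, so they do not show how many reads fit both genes.

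**Figure D2:**
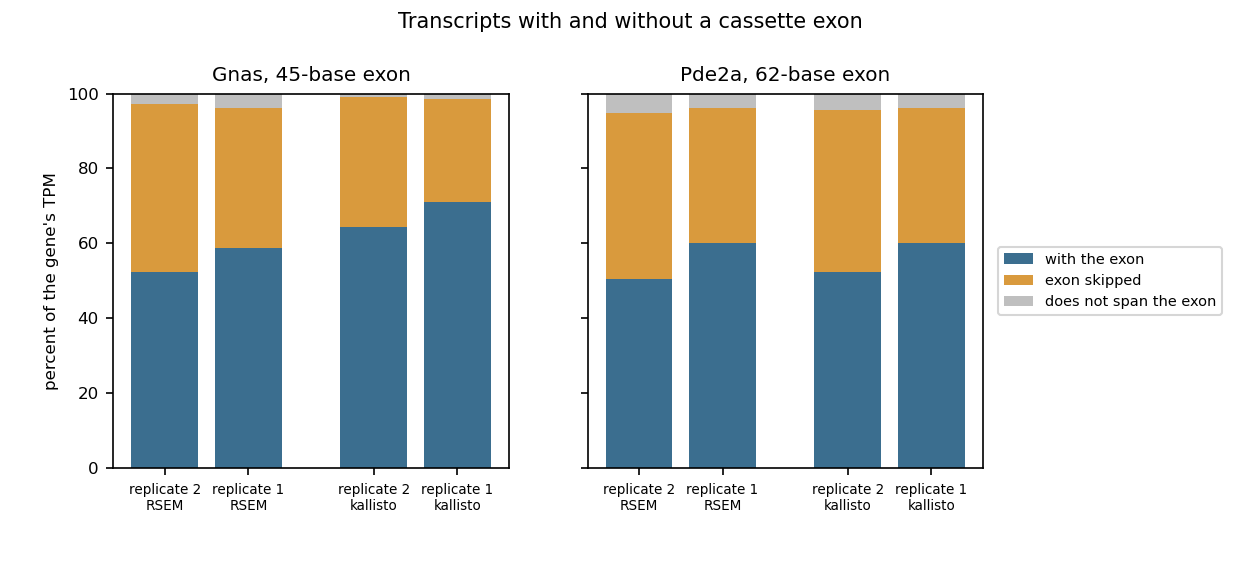
Bars give the percent of the TPM of Gnas (left panel) and Pde2a (right panel) on transcripts that hold the named exon, skip it or do not span it, in replicate 2 and replicate 1 under each of the 2 quantifications. For Gnas the share with the exon is 52.3% and 58.7% in the RSEM-format tables against 64.3% and 71.1% in the kallisto-format ones, and for Pde2a the 2 formats lie close together.

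Anchoring proteins tether PKA to places in the cell. Akap13, which is also a guanine nucleotide exchange factor, had 46.0 TPM in replicate 2 and 45.4 TPM in replicate 1. Akap1, the anchor on the outer mitochondrial membrane, had 44.2 TPM in replicate 2 and 34.6 TPM in replicate 1. The pair overlapped in their bounds in replicate 2, and Akap13 was ahead by 1.31 times in replicate 1. On protein-coding transcripts Akap1 was ahead in replicate 2, with 39.8 TPM against 38.9 TPM. Akap13 was ahead there in replicate 1, with 36.9 TPM against 29.6 TPM. Akap12, also called gravin, had 7.92 TPM in replicate 2 and 7.51 TPM in replicate 1. Of the EPAC genes, Rapgef4 (EPAC2) had 51.2 TPM in replicate 2 and 65.1 TPM in replicate 1. Rapgef3 (EPAC1) had 12.3 TPM in replicate 2 and 11.3 TPM in replicate 1. Rapgef4 led in both glands by 4.16 times in replicate 2 and 5.74 times in replicate 1. Only 38.1% of the Rapgef4 TPM in replicate 2 and 30.3% in replicate 1 fell on protein-coding transcripts, which gave 19.5 TPM in replicate 2 and 19.8 TPM in replicate 1, above 5.56 TPM in replicate 2 and 7.25 TPM in replicate 1 for Rapgef3.

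The transcripts behind a gene's level differed widely among the families. Of the 42 detected genes, 33 had the same leading transcript in both glands, and for 25 that transcript also led in both quantifications. In 34 genes the leader was annotated protein coding in both glands. At least as much TPM on protein-coding transcripts as on all others was found in both glands for 36 genes. The other 6 were Crtc2, Rapgef4, Pde2a, Pde7a, Pde1a and Rapgef3. Mc2r has a single annotated transcript, and the leading transcript of Mrap took 89.5% of the Mrap TPM in replicate 2 and 89.2% in replicate 1.

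Some leading transcripts could not be fixed by these data. The transcript Adcy7-202 took 86.0% of the Adcy7 TPM in replicate 2 and none in replicate 1. Another protein-coding transcript of the gene, with a start further downstream, took none in replicate 2 and 57.9% in replicate 1. The kallisto-format table split Adcy7 in replicate 1 evenly, with 33.1% on each of those 2 transcripts. For Prkar2b the lead passed between Prkar2b-202, with 55.6% in replicate 2 and 43.9% in replicate 1, and Prkar2b-201, with 38.0% in replicate 2 and 49.96% in replicate 1. Prkar1b-201 led Prkar1b with 82.2% in replicate 2 and 98.4% in replicate 1, yet the kallisto-format tables put Prkar1b-203 first in both glands. Crem-235 led Crem with 30.6% in replicate 2 and 20.8% in replicate 1 and was listed at 0 in both kallisto-format tables. Shares of single transcripts in these genes are therefore estimates that depend on the quantifier.

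**Figure D3:**
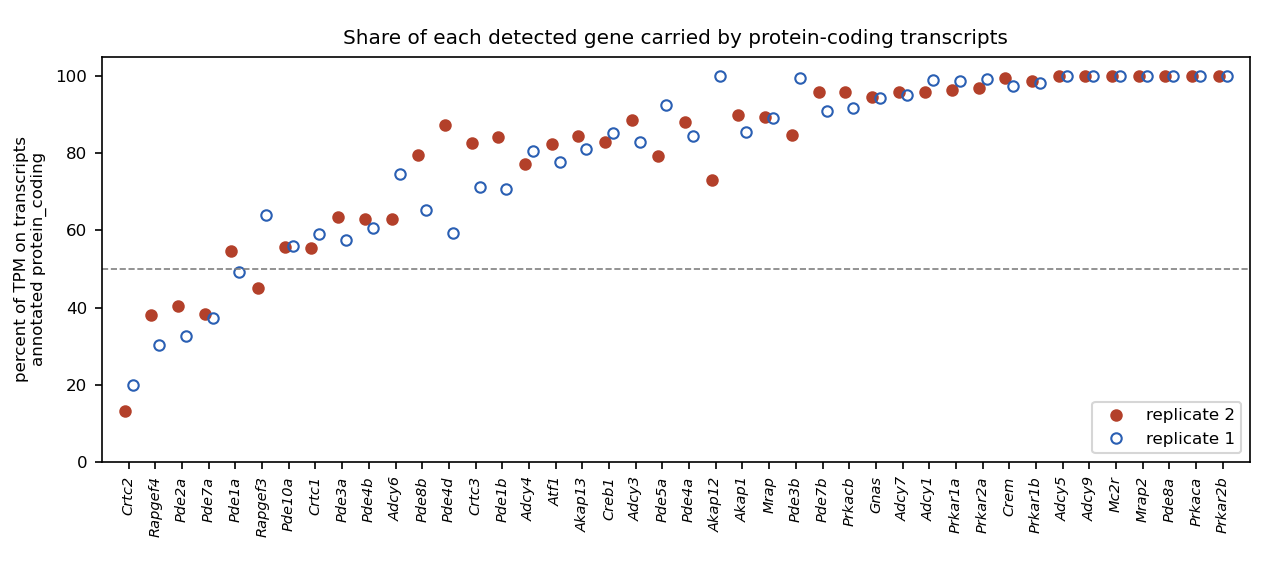
For each of the 42 detected genes the percent of its TPM on transcripts annotated protein coding is plotted in replicate 2 (filled) and replicate 1 (open), ordered by the mean, with a dashed line where coding and other transcripts are equal. Crtc2, Rapgef4, Pde2a and Pde7a lie below the line in both glands, and 7 genes, Mc2r and Prkaca among them, reach the top of the scale in both.

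Between the animals, 41 of these genes could be compared at a mean count of at least 100. In scaled counts 33 of those 41 lay within 1.5-fold between the glands. The share of all genes within that range was not computed, so no comparison is drawn from it. Pde3b alone exceeded 2-fold upwards in replicate 2, its counting interval excluding equality, against 2.40% of the 12853 nuclear genes as deeply counted. None (0 of 41) was lower by 2-fold or more, against 1.10% of those genes. With 1 animal on each side there is no replicate check of a fold, and the intervals cover counting error only. An interval that excluded equality, in either direction and at any size, was found for 32 of the 41 (78.0%). Among all genes tested the share was 56.8%. The width of an interval depends on the number of counts. The median log2 ratio of replicate 2 over replicate 1, taken over the 45 genes averaging 10 counts or more, was -0.004 (22 above 0 and 23 below), beside 0.01 over all 18181 nuclear genes with as many counts.

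Pde3b (chr7:114415281-114539251, plus strand) encodes a phosphodiesterase inhibited by cGMP and known from adipocytes and liver, where insulin acts on it. It had 9.53 TPM from 1613 counts in replicate 2 and 1.77 TPM from 320 counts in replicate 1. The fold of scaled counts was 4.33 (95% exact conditional binomial interval 3.84 to 4.90), a log2 ratio of 2.03. Pde3b was above Pde3a in replicate 2, by a ratio of 1.26, and below it in replicate 1, by a ratio of 0.251. Fat cell markers moved with it. All 10 genes of the adipocyte list, among them Adipoq and Fabp4, were detected and exceeded 2-fold in favour of replicate 2, with a summed level of 2248 TPM in replicate 2 and 258 TPM in replicate 1. No gene of that list was at 0. Of the 7 markers of brown fat, 2 reached 1 TPM in both glands, and their list summed to 289 TPM in replicate 2 and 27.2 TPM in replicate 1. Several of them had enough counts in replicate 2 alone, and Ucp1 had 80.6 TPM in replicate 2 and 0.14 TPM in replicate 1. Their part in the Pde3b result was not tested. In whole glands, fewer cells of a type and less RNA per cell cannot be told apart.

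The next largest differences stayed under 2-fold. Higher in replicate 2 were Pde1b, a calcium and calmodulin-dependent enzyme, by 1.67-fold (1.44 to 1.94), Adcy5 by 1.62-fold (1.49 to 1.77) and Pde1a by 1.51-fold (1.26 to 1.81). Lower in replicate 2 were Adcy4 with a fold of 0.599 (0.507 to 0.707), Prkar1b with 0.616 (0.577 to 0.657), Pde10a with 0.624 (0.595 to 0.654) and Mrap with 0.635 (0.599 to 0.673). Mrap2, from 133 counts in replicate 2 and 61 in replicate 1, had a fold of 1.87 (1.37 to 2.58) but lay just under the minimum of 100 counts on average. Mc2r had a fold of 0.826 (0.792 to 0.860) and Gnas one of 0.918 (0.905 to 0.931). Both PKA catalytic genes had log2 ratios above 0 and all 4 regulatory genes ratios below 0, each by less than 2-fold. For Prkar2a the interval included equality (fold 0.972, 0.906 to 1.04). Prkar1b in kallisto-format TPM was higher in replicate 2, with 39.1 against 34.3 in replicate 1. Its kallisto-format counts gave a log2 ratio of -0.68. All 8 cortical markers listed had log2 ratios below 0, with a median of -0.54. Their summed level was 19127 TPM in replicate 2 and 23939 TPM in replicate 1. Hsd3b1 was nearest to 0, at -0.06, and its TPM was higher in replicate 2 (5325 against 5140). Its sign was not checked under other scalings. The 10 chromaffin markers had a median log2 ratio of -0.35 and a sum of 2881 TPM in replicate 2 and 3922 TPM in replicate 1. Of these, 2 were at least 2-fold lower in replicate 2: Th (fold 0.459) and Pnmt, with 78.0 TPM in replicate 2 and 363 TPM in replicate 1. Median log2 ratios were -0.04 for zona glomerulosa, -0.11 for endothelium, 0.09 for smooth muscle and pericytes, 0.04 for Schwann and sustentacular cells, 0.50 for capsule and fibroblasts and 0.52 for macrophages. Some of these lists held genes that were at least 2-fold apart in either direction: Acta2 (fold 0.317) and Tagln (0.412) of the smooth muscle list were lower in replicate 2, and S100b (8.60) of the Schwann list, and Col1a1 and Col3a1 of the fibroblast list, were higher. Of the X-zone list 1 of 3 genes was detected, and of the lymphocyte and kidney lists 0 of 8 each. The part of any of these lists in the differences of the 47 genes was not tested.

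**Figure D4:**
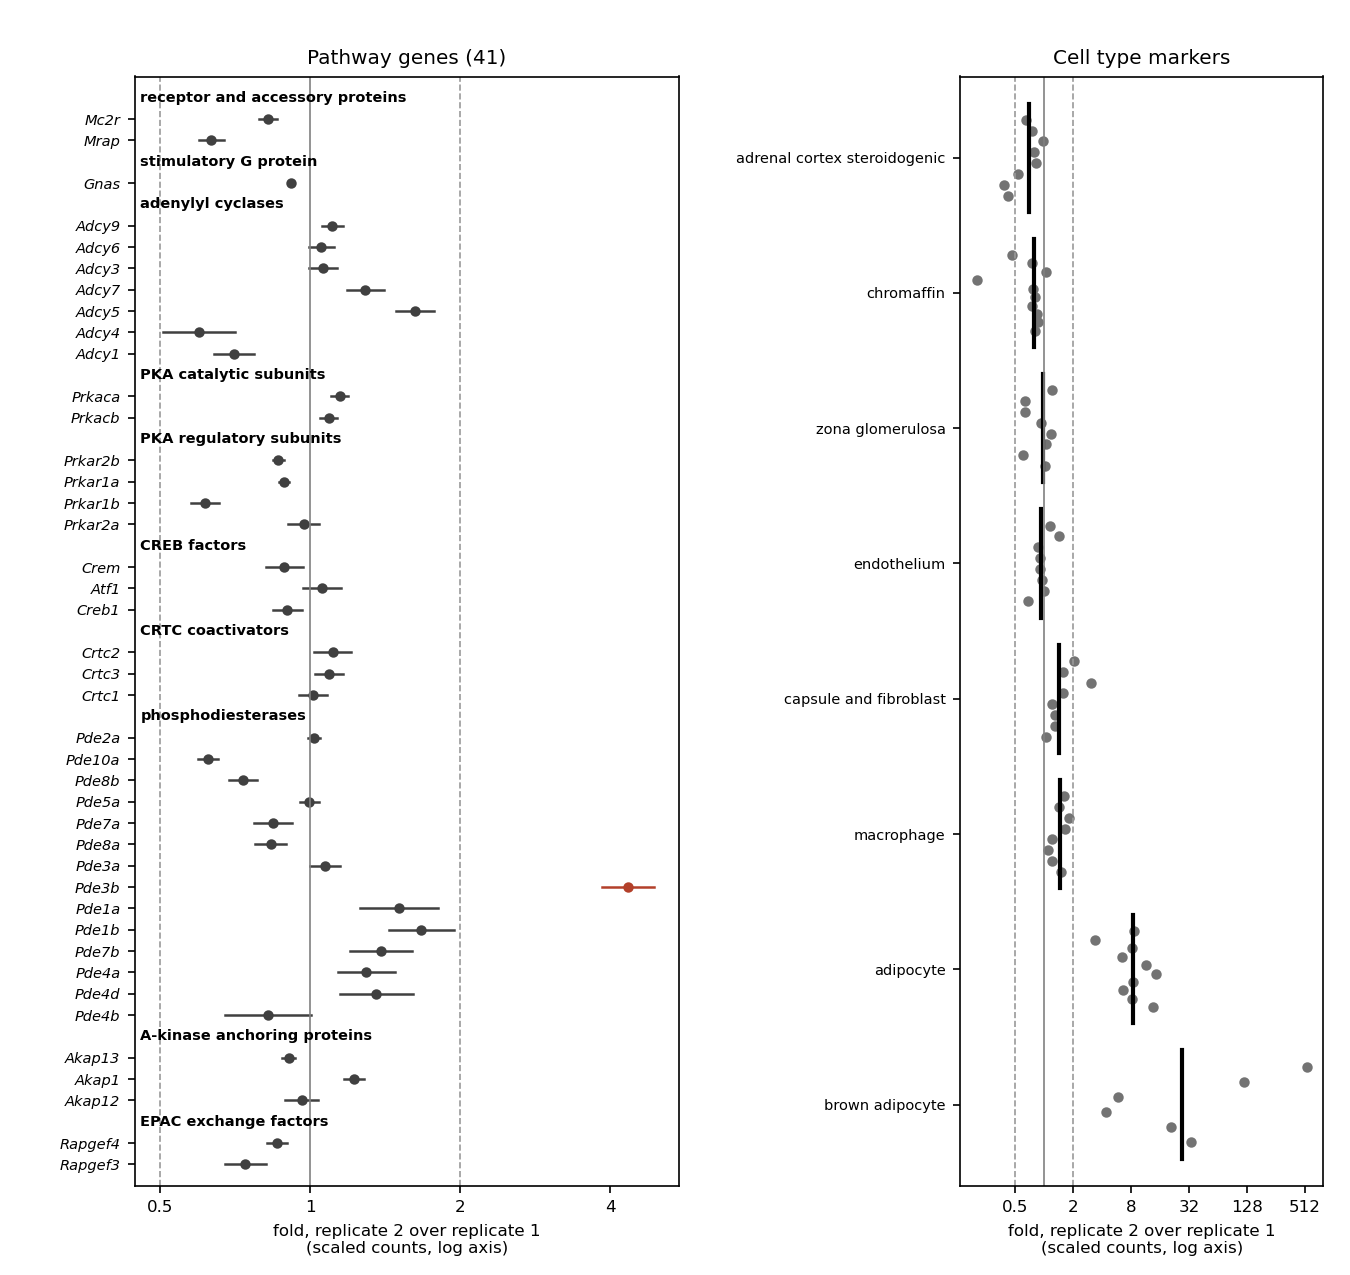
The left panel gives the fold of scaled counts, replicate 2 over replicate 1, with its 95% counting interval for the 41 genes averaging 100 counts or more; the right panel gives single markers with as many counts as dots and their median as a bar, on log axes with dashed lines at 2-fold. Pde3b, at 4.33, is the only one of the 41 beyond the dashed lines, and the adipocyte and brown adipocyte markers all lie above 2-fold.

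Beyond the 47 genes, 73 others of the pathway were looked at, of which 56 were detected. Among the 55 averaging 100 counts or more, 2 exceeded 2-fold upwards and 8 downwards in replicate 2, beside the 2.40% and 1.10% of all nuclear genes given above. Among the 8 other G protein alpha genes the inhibitory Gnai2 was highest, with 142 TPM in replicate 2 and 113 TPM in replicate 1, followed by Gnai3 with 53.9 TPM in replicate 2 and 54.1 TPM in replicate 1. All were far below Gnas. Gnai1 was higher in replicate 2, with 10.8 TPM in replicate 2 and 4.05 TPM in replicate 1 (2.46-fold, 2.17 to 2.79). Gnal, which encodes the Gs-like olfactory alpha subunit, had 1.28 TPM in replicate 2 and 0.86 TPM in replicate 1.

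The other regulators were detected in most lists, and none of them averaging 100 counts or more was 2-fold apart. Of 5 further cyclase, PKA kinase and PKA inhibitor genes 3 were detected, led by the inhibitor Pkig with 20.5 TPM in replicate 2 and 17.0 TPM in replicate 1 and the kinase Prkx with 6.15 TPM in replicate 2 and 6.12 TPM in replicate 1. Of 8 further genes with a Pde symbol 3 were detected. The symbol does not mean that each encodes an enzyme that cleaves cAMP or cGMP. The highest were Pde6d, with 17.5 TPM in replicate 2 and 17.3 TPM in replicate 1, and Pde12, with 3.63 TPM in replicate 2 and 3.85 TPM in replicate 1. Pde6b and Pde6c, known from the retina, were listed at 0. Of 11 further anchoring genes 8 were detected, led by Akap8l with 84.3 TPM in replicate 2 and 69.7 TPM in replicate 1, and Akap2 with 50.5 TPM in replicate 2 and 64.2 TPM in replicate 1. On protein-coding transcripts alone Akap8l had 15.7 TPM in replicate 2 and 9.50 TPM in replicate 1, below Akap13 and Akap1 on that scale. Akap2 on protein-coding transcripts had 50.5 TPM in replicate 2 and 63.7 TPM in replicate 1, above Akap13 with 38.9 TPM and 36.9 TPM. In the kallisto-format tables Akap2, at 41.3 TPM in replicate 2, lay below Akap13, at 45.8 TPM. In replicate 1 it lay above, at 51.4 TPM against 45.2 TPM. Akap8l was above Akap13 in both glands there, with 63.5 TPM in replicate 2 and 48.4 TPM in replicate 1. All 5 salt-inducible kinase and CREB cofactor genes were detected, with Ep300 at 31.9 TPM in replicate 2 and 32.4 TPM in replicate 1 and Sik3 at 25.0 TPM in replicate 2 and 23.7 TPM in replicate 1. All 7 genes of receptor desensitisation were detected, with Rgs2 at 107 TPM in replicate 2 and 97.1 TPM in replicate 1 and Arrb1 at 30.5 TPM in replicate 2 and 23.2 TPM in replicate 1.

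Genes known to respond to ACTH or cAMP were mostly lower in replicate 2, while the 47 genes as a list had a median near 0. Of the 14 ACTH-responsive cortical genes 13 had log2 ratios below 0, with a median of -0.54. The nearest to 0 of these was Hsd3b1 at -0.06, with higher TPM in replicate 2. Over all nuclear genes averaging 10 counts or more, 51.9% had ratios above 0. Star, which moves cholesterol into mitochondria, had 4897 TPM in replicate 2 and 6855 TPM in replicate 1, and Hsd3b1, a steroid dehydrogenase, had 5325 TPM in replicate 2 and 5140 TPM in replicate 1. Those at least 2-fold lower in replicate 2 included Akr1b7, Scarb1 and Fdx1. Akr1b7, a reductase under ACTH control in the mouse adrenal, had 582 TPM in replicate 2 and 2262 TPM in replicate 1 (fold 0.237, 0.234 to 0.241), and Scarb1, the HDL receptor, had 609 TPM in replicate 2 and 1453 TPM in replicate 1 (fold 0.384, 0.380 to 0.389). Fdx1, which encodes the electron carrier of mitochondrial P450 enzymes, had 516 TPM in replicate 2 and 1136 TPM in replicate 1. The 1 gene of the list above 0 was Lipe, hormone-sensitive lipase, with 108 TPM in replicate 2 and 36.3 TPM in replicate 1 (2.53-fold), an enzyme that adipocytes also make in quantity.

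Of the 12 cAMP-responsive targets, 9 of the 11 averaging 10 counts or more had ratios below 0, with a median of -0.57. Over all nuclear genes with as many counts, 51.9% had ratios above 0. The 2 targets above 0 were Nr4a3 (fold 1.23, 1.16 to 1.30) and Ppargc1a (fold 3.99, 2.69 to 6.09). Ppargc1a had 144 counts in replicate 2 and 31 in replicate 1, too few to be called. The immediate early gene Nr4a1 had 17.9 TPM in replicate 2 and 78.4 TPM in replicate 1 (fold 0.202, 0.189 to 0.216), the lowest fold of that list among genes averaging 100 counts or more. Dusp1, a phosphatase of MAP kinases, had 16.3 TPM in replicate 2 and 25.1 TPM in replicate 1. Fos had 4.93 TPM in replicate 2 and 13.7 TPM in replicate 1, and Fosb had 1.18 TPM in replicate 2 and 2.06 TPM in replicate 1, both at least 2-fold lower in replicate 2. Crh was listed at 0. The cortical markers above had ratios below 0 as well, and 8 of the 14 ACTH-responsive genes are themselves on that marker list. The part of the cortical markers in these differences was not tested.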

How the data were processed

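Adrenal total RNA of 2 animals was measured, 1 library each, from 300 ng of RNA with a strand-keeping kit and ERCC spike-ins, per the labels. The deposited gene tables hold expected counts, not normalized, and TPM that the authors scaled to a common sum over all entries, in the columns RSEM writes, per the file headers. Credibility bounds and posterior means of TPM stand beside them. The deposited transcript tables give the percent of its gene's TPM for each transcript. A second deposited table holds estimated counts and TPM in kallisto's columns, per the file headers. No software version is named by the headers or labels. Reads of a CAST/EiJ allele were set against mm10, which can lower their counts.

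Genes and transcripts were named by GENCODE M21. The 47 genes, the pathway lists and the marker lists were chosen with earlier results of these data known. Levels are deposited TPM, mean ± SD over 2 animals, which measure the spread between these samples only. Detection means at least 1 TPM in both. Named are all members, the 2 highest of each other pathway list, and genes called apart, except some that are not reported here. Of 47 genes, 13 share exon sequence with another annotated gene, 11 of them on the opposite strand, and whether quantification used strand is not stated. For ratios, expected counts of nuclear genes were scaled with TMM (edgeR 4.0.16, R 4.3.3) and folds were given exact conditional binomial 95% intervals (scipy 1.17.1) on rounded counts. Size factors of DESeq2 1.42.0 served as 1 alternative. Log2 ratios are of CPM + 1 and understate low genes. A gene was called apart at 2-fold or more with an interval excluding 1 and a mean of at least 100 counts. The procedure was tested on simulated data. Where 0 counts were seen, up to 3 remain possible, which is 0.0990 CPM in replicate 2 and 0.110 CPM in replicate 1. Intervals cover counting error only, since the reads carry no molecular identifiers. No p-value was computed, since 2 animals in 1 group allow none below 0.5.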

Additional observations from a re-analysis of the deposited data

How the results depend on the processing

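Of the 47 genes, 40 to 42 were detected under every alternative run: minimums of 0.5 and 2 TPM, kallisto-format TPM, rescaled TPM, protein-coding transcripts only and either animal alone. The median level of the 47, 15.0 TPM as deposited, was 13.2 with kallisto-format TPM, 15.3 with posterior mean TPM, 40.1 when TPM was rescaled over nuclear protein-coding genes, and 11.6 when only protein-coding transcripts were summed, an alternative chosen after seeing the data. From either animal alone it was 14.9 to 15.0. The rescaling multiplies every gene of a gland by 1 factor and changes no order.

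Of 9 families with several genes, 8 had the same leader in both glands. These leaders kept first place in both glands in 8 families with posterior means, 7 with kallisto-format TPM, 6 by expected counts and 6 on protein-coding transcripts. Being first in both glands, they are first in either animal alone by definition. On protein-coding transcripts the leaders not kept were Crtc2 and Akap13, and Akap13 was still first in replicate 1. The ratio of Mc2r to Mrap turned round with kallisto-format TPM (0.916, against 1.16). The ratio of Prkar2b to Prkar1a did so by expected counts (0.870) and in replicate 2 alone (0.977, with 1.11 in replicate 1 alone), against 1.04. The ratio of Crtc2 to Crtc3 did so by expected counts (0.540) and on protein-coding transcripts (0.341), against 1.58. Expected counts are not divided by length; the cause of the other reversals was not tested.

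Pde3b was the only one of the 47 genes called under each scaling (TMM, DESeq2, library totals, ERCC totals), with kallisto-format counts, under each count minimum and pseudocount. The median log2 ratio of the 47 ran from -0.02 to 0.07, and scaling moved that of all genes by less than 0.1. No paired analysis was possible because the labels name 1 group. With 2 animals of differing marker content, gene level and tissue makeup cannot be told apart, and genes under 100 counts were not called.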
